A study of Mus musculus with 4 samples.

Results

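The aminoacyl-tRNA synthetases are the enzymes that join each amino acid to its transfer RNA, and 35 of their genes were read in sorted basal cells from mouse mammary outgrowths with and without miR-205. The 35 genes are rows matched by Ensembl identifier to a list of synthetase symbols, out of 34615 gene rows, and fall into 19 cytosolic and 16 mitochondrial enzymes. The family was taken up because Cars, the cysteinyl-tRNA synthetase, had been seen low in the knockout, so the Cars values are a description and carry no test. The other members were chosen by name and not by their values. Symbols are those of the annotation, where newer ones add a 1 (Cars1).

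RNA sequencing was done on 4 libraries. WT cells carried wild-type miR-205 alleles and KO cells carried miR-205 fl/fl alleles, and both groups carried the Rosa mTmG reporter, which switches from a red to a green membrane protein where Cre has acted. Cells of both groups received Ad-cre, an adenovirus that delivers Cre, and were transplanted into SCID-Beige hosts aged 3 weeks, a strain that lacks B and T cells and has impaired natural killer cells but keeps its myeloid cells and stroma. Outgrowths were collected after 8 weeks, 40 of them pooled, and green cells with CD24 and high CD49f were sorted as basal cells. There were 2 WT and 2 KO libraries, and nothing states that the libraries of a genotype came from separate pools, so the spread between them may be technical. No strain or sex is stated for the transplanted cells.

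A synthetase of the cytosol charges the transfer RNAs used by the ribosomes of the cell at large, while a separate set of nuclear genes, most with a 2 at the end of the symbol, serves the ribosomes inside mitochondria. Gars and Kars each encode both forms of their enzyme and are counted here as cytosolic. Several cytosolic synthetases are held in a multisynthetase complex by the scaffold proteins AIMP1, AIMP2 and AIMP3 (the last encoded by Eef1e1). When amino acids run short or the endoplasmic reticulum is stressed, phosphorylation of eIF2 raises translation of the transcription factor ATF4, and many cytosolic synthetase genes are among its known targets, through a DNA element shared by C/EBP and ATF factors. In the mammary gland, miR-205 is a microRNA of the basal layer.

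The genotype labels could not be checked on the targeted gene. Mir205 (ENSMUSG00000065533) had 0 counts in each of the 4 libraries, which allows up to 0.0532 and 0.0504 counts-per-million (CPM) in the WT libraries and 0.0477 and 0.0719 CPM in the KO libraries when counting error alone is considered. Its mature product is shown because the 3′ untranslated regions (UTRs) of the members were searched for its seed. The RefSeq sequence lies at chr1:193507503-193507524 on the minus strand of GRCm38.p6, and capitals mark bases 2 to 8, the seed.
mmu-miR-205-5p: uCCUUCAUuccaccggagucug

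Matches to the seed were searched on the transcript strand as ATGAAGG (7mer-m8), TGAAGGA (7mer-A1) or both overlapping (8mer). They were present in the annotated 3′ UTRs of 3 of 19 cytosolic members (15.8%) and 2 of 16 mitochondrial members (12.5%), against 20.7% of all genes with a 3′ UTR and 23.2% of the tested genes. The cytosolic members had short UTRs, with a median of 354 bases for the longest of each gene, against 1200 bases over the tested genes. Cars had no match in these UTRs. Matches were found in Gars, Tars and Nars and, among the mitochondrial enzymes, in Mars2 and Yars2. They are shown, except that of Nars, as stretches of 30 bases from the GENCODE M21 transcripts, with the match in capitals. First and second are counted back from the UTR end, at 270 and 719 bases in Tars and 5435 and 8046 bases in Mars2.
Gars: acaattaaagtTGAAGGAattctgaacaca
Tars, first: ctacattttatTGAAGGAgctggtgtgccg
Tars, second: taaccctctagTGAAGGAggacatatgttt
Mars2, first: taagtttcatgATGAAGGAcaggactacac
Mars2, second: gcatggtaaggTGAAGGAccatttccacaa
Yars2: cttgaactctcTGAAGGActccttcaagtg
A match is a description of the letters and not a shown site of action.

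The promoters of the members were searched for the core of the C/EBP-ATF response element, a motif chosen after the values were seen. The letters TGATGNAA were looked for on both strands in windows of 250 bases before to 50 bases after the RefSeq start, which were found for 13 cytosolic and 14 mitochondrial members. The motif was present in 5 of the 13 cytosolic promoters (38.5%) and 0 of the 14 mitochondrial ones, against 1219 of 27025 gene promoters (4.51%). The 5 genes were Aars, Gars, Iars, Tars and Yars, and for the last 4 of these stretches of 30 bases are shown on the strand that carries the motif, with the motif in capitals and GRCm38.p6 coordinates.
Gars, chr6:55037960-55037989, minus strand: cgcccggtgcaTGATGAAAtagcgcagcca
Iars, chr13:49682126-49682155, minus strand: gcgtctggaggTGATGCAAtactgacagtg
Tars, chr15:11399655-11399684, plus strand: agctaaccagcTGATGCAAcgggactcctg
Yars, chr4:129189895-129189924, plus strand: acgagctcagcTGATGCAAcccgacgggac
These 4 matches lie within 30 bases before or 15 bases after the start. The windows of Cars, Hars, Lars, Nars, Vars and Wars were not analysed here.

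Library depth ran from 47953972 to 60030932 gene counts. KO replicate 2 stood apart, with 12679 genes that had a count against 18027 to 18897 in the other libraries, and each result is therefore given by library. Basal markers were abundant throughout: Acta2, smooth muscle actin, had 2493 and 2331 CPM across WT and 3707 and 2264 CPM across KO, and Itga6, which encodes CD49f, had 2213 and 2021 CPM for WT against 2498 and 2637 CPM for KO. Myh11, a smooth muscle myosin, had 1644 and 1813 CPM in the WT libraries and 1854 and 1228 CPM in the KO libraries, and Krt5, the basal keratin, had 1219 CPM in both WT libraries and 1773 and 1512 CPM in KO. Summed luminal markers (15 genes of 16 listed, led by Plet1 and Lcn2) had 3155 and 4304 CPM across WT and 3458 and 5203 CPM across KO. That sum was carried by a few genes: 13 of the 15 were under the WT mean in KO replicate 1 and 6 in KO replicate 2, with medians of -0.38 and 0.19 on the log2 scale. Kit, Elf5 and Csn2, named after their values were seen, had both KO libraries below WT, and Lcn2 had both above. These were 3 and 1 of the 15, where 19.2% and 13.2% of all tested genes had these orderings. In KO replicate 2, 7 of the 15 lay above both WT libraries and 5 below, where 34.2% and 54.9% of all tested genes did. Summed fibroblast markers (7 genes of 8, led by Fbn1 and Dcn) had 532 to 591 CPM in WT and 611 to 788 CPM in KO. Summed immune markers (6 genes of 7, led by Cd74 and Ptprc) had 66.0 to 149 CPM in WT and 97.0 to 319 CPM in KO, with Cd3e at 0 counts in KO replicate 1. Adgre1, a macrophage marker, did not pass the filter on low counts and stayed out of that sum. It had 0 counts in WT replicate 1 and KO replicate 2. Summed endothelial markers (5 genes of 6, led by Cdh5 and Emcn) had 71.7 to 135 CPM in WT and 56.8 to 116 CPM in KO, with Cldn5 at 0 in KO replicate 2. The summed red blood cell genes (3 of 4, led by Alas2 and Hbb-bs) stayed under 3 CPM in every library. The part of these other cells in the synthetase values was not tested.

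All 19 cytosolic synthetase genes were expressed in each library and all 35 genes passed the filter on low counts. CPM values below are scaled by the trimmed mean of M values (TMM), and levels of different genes are compared only as CPM per kb of exon. On that per-length scale Nars, for asparagine, had the highest cytosolic level, at 128 and 138 CPM per kb in WT and 119 and 134 in KO. Iars, for isoleucine, followed at 78.2 and 93.8 CPM per kb in WT and 74.2 and 107 in KO, below Nars in every library. Gars, for glycine, had 53.1 and 82.2 CPM per kb in WT and 61.3 and 117 in KO, a range that overlapped that of Iars. At the low end were Qars, for glutamine, with a mean over the 4 libraries of 8.18 CPM per kb, Vars, for valine, with 5.73, and Farsa, the alpha subunit for phenylalanine, with 4.20. Cars had a mean of 15.1 CPM per kb and ranked 15 of 19, or 10 of 19 with the longest transcript as the length, and the median over the 19 genes was 21.3 CPM per kb.

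**Figure D1:**
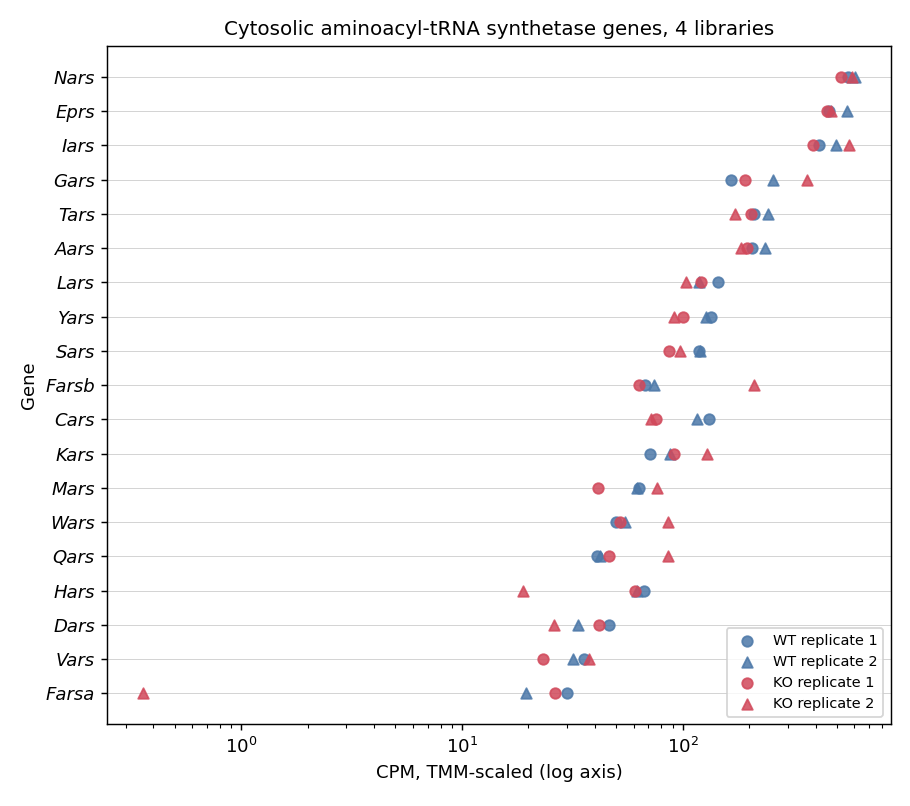
CPM (TMM-scaled, log axis) of the 19 cytosolic synthetase genes, 1 point per library, with WT in blue and KO in red, circles for replicate 1 and triangles for replicate 2. The libraries lie close together for most genes, and Farsa in KO replicate 2, at 0.360 CPM, stands furthest from its group.

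Cars, which charges cysteine, had 132 and 117 CPM for WT against 75.5 and 72.1 CPM for KO, or 124 ± 10.98 CPM and 73.8 ± 2.35 CPM (mean ± SD, n = 2 each). Both KO libraries lay below both WT libraries, at 60.7% and 58.0% of the WT mean, and the KO libraries were closer to each other than the WT libraries were. In the edgeR model the log2 fold change (KO over WT) was -0.75 ± 0.25 (SE). It was the value that chose the family, and it was the cytosolic member with the widest gap to WT in KO replicate 1, 35.2% under the lower WT library. Fewer cells of a type and less RNA per cell cannot be told apart in such bulk libraries. An annotated ferritin pseudogene on the opposite strand, Gm15580, shares 2.60% of the 40-base stretches of Cars, and was counted 387 and 136 times in the WT libraries and 180 and 0 times in the KO libraries, against 7442 counts of Cars in WT replicate 1.

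None of the 35 members passed the edgeR quasi-likelihood test at a Benjamini-Hochberg adjusted p under 0.05, where 0% of 15364 tested genes were called. At an unadjusted p under 0.05 there were 0 of the 34 members other than Cars, against 147 genes in all (0.957%). DESeq2 called 4 genes (0.0288%) and limma voom 0, none of them a member. Without KO replicate 1, which leaves KO replicate 2 as the only KO library, 4 members were called higher and 10 lower, among 2036 and 3688 genes.

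Sars, Yars, Aars, Tars and Hars joined Cars in having both KO libraries below both WT libraries, which made 6 of 19 cytosolic genes (31.6%). The background for this ordering was 19.2% of all tested genes and 12.6% of tested genes at a mean of 20 CPM or more, the range in which 18 of the 19 lie. That mean is over all libraries, KO included, so the cut favours genes that are not low in KO. Kars and Qars had the opposite ordering, both KO above both WT, for which the background was 13.2% and 21.5%. Cars is among the 6 by choice. Under DESeq2 size factors the same genes were found. Under upper quartile scaling Eprs and Nars were added to the lower group, which made 8 (42.1%), while the background was 21.3% of all tested genes and 16.3% of those at 20 CPM or more. Under total count scaling Eprs, Nars and Vars were added, which made 9 (47.4%), beside a background of 21.4% and 16.8%.

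Sars, for serine, had 119 and 120 CPM in the WT libraries and 86.4 and 97.0 CPM in the KO libraries, with a log2 fold change of -0.38 ± 0.24 (SE). Its KO libraries lay 27.1% and 18.2% under the lower WT library, a gap wider than the spread within either group. Yars, for tyrosine, had 135 and 127 CPM across WT and 101 and 91.4 CPM across KO, a log2 fold change of -0.45 ± 0.24, with KO libraries 20.8% and 28.1% under the lower WT library. Among the cytosolic genes of the lower group, Cars, Sars and Yars were those in which both KO libraries stood well clear of WT.

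The other members of the lower group were separated by less. Aars, for alanine, had 205 and 236 CPM for WT against 197 and 183 CPM for KO, and KO replicate 1 was 4.29% under the lower WT library. Tars, for threonine, had 210 and 244 CPM in the WT libraries and 203 and 172 CPM in the KO libraries, with KO replicate 1 only 3.01% under the lower WT library. Hars, for histidine, had 66.6 and 62.2 CPM across WT, 60.7 CPM in the first KO library and 18.8 CPM in the second, so that its low KO mean came from the second library. For these 3 genes the gap in KO replicate 1 was smaller than the distance between the WT libraries.

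Kars, for lysine, had 70.8 and 88.0 CPM across WT and 91.8 and 130 CPM across KO, and Qars had 40.8 and 42.4 CPM for WT against 46.4 and 85.5 CPM for KO. Their log2 fold changes were 0.48 ± 0.31 and 0.66 ± 0.42 (SE). In both genes KO replicate 1 lay just above WT and KO replicate 2 well above it.

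**Figure D2:**
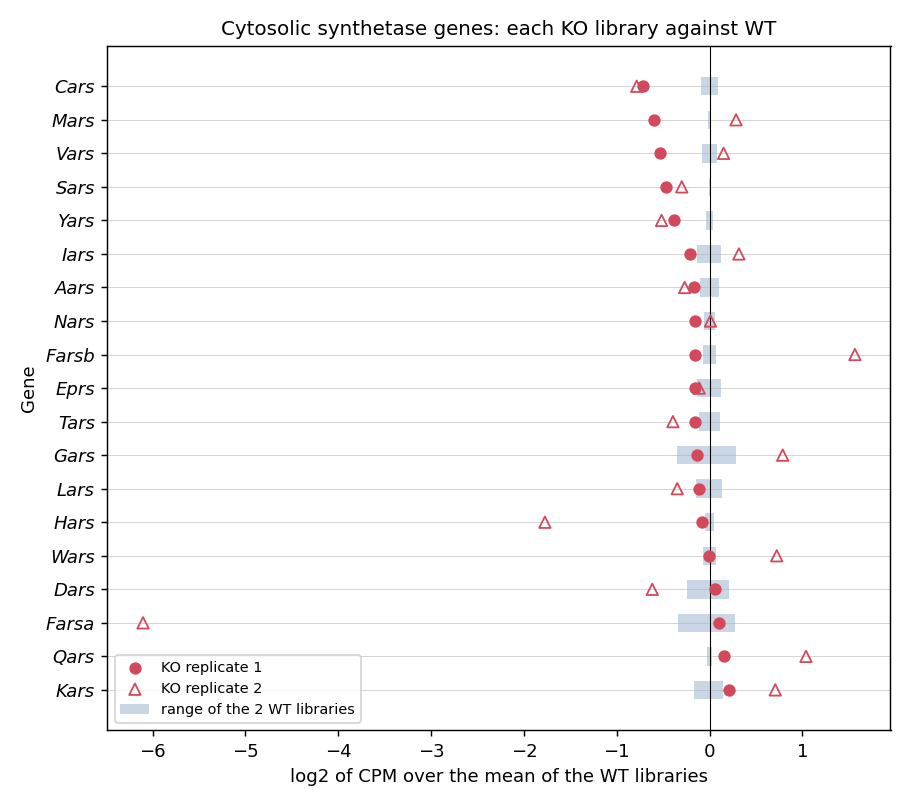
Log2 of CPM in each KO library over the mean of the WT libraries for the 19 cytosolic genes, ordered by KO replicate 1, with circles for KO replicate 1, triangles for KO replicate 2 and bars for the range of the WT libraries. Of the 19 circles, 12 lie left of the WT range and 2 right of it, while the triangles scatter to both sides, from -6.10 for Farsa to 1.56 for Farsb.

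The KO libraries differed in how the cytosolic group lay. In KO replicate 1, 12 of 19 genes (63.2%) were below both WT libraries and 2 above, where 30.9% of all tested genes and 30.1% of those at 20 CPM or more were below, and 31.4% and 36% above. Its median log2 value against the WT mean was -0.16, against 0.01 for tested genes at 20 CPM or more, and 15 of 19 members were negative. In KO replicate 2, 9 genes were below both WT libraries and 8 above, where 54.9% of all tested genes and 36.1% of those at 20 CPM or more were below and 34.2% and 53.2% above. The median there was -0.11, against 0.18 for tested genes at 20 CPM or more. Without Cars the counts were 11 of 18 below in KO replicate 1 and 8 of 18 in KO replicate 2.

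Some genes were low in KO replicate 1 alone. Mars, for methionine, had 63.4 and 62.0 CPM in the WT libraries, 41.5 in KO replicate 1 and 76.4 in KO replicate 2. Vars had 35.7 and 32.0 CPM across WT, 23.4 CPM in the first KO library and 37.5 CPM in the second. In both, the KO libraries lay on opposite sides of WT. Iars, with 412 and 494 CPM in the WT libraries, 391 in KO replicate 1 and 564 in KO replicate 2, did likewise with a smaller gap.

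The subunits of the phenylalanine enzyme, which works as a tetramer of alpha and beta chains, parted in KO replicate 2. Farsa, the alpha chain, had 29.9 and 19.5 CPM in WT and 26.4 CPM in KO replicate 1, but 0.360 CPM in KO replicate 2, which were 15 counts. Farsb, the beta chain, had 67.8 and 74.5 CPM in WT and 63.5 CPM in KO replicate 1, but 210 CPM in KO replicate 2. A KO replicate 2 value under 25% of the WT mean was found in 35.7% of all tested genes. At a mean of 20 CPM or more the share was 4%, but that mean includes KO replicate 2. The cut thus removes genes that are low in that library. Farsa had a WT mean of 24.7 CPM, and its mean over all libraries was 19.1 CPM because of KO replicate 2. Farsa was the 1 cytosolic synthetase with a KO replicate 2 value under 25% of the WT mean.

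The remaining cytosolic members overlapped between the groups. Nars had 559 and 603 CPM in the WT libraries and 519 and 584 CPM in the KO libraries, and Eprs, the fused enzyme for glutamate and proline, had 460 and 553 CPM across WT and 453 and 469 CPM across KO. Their log2 fold changes were -0.08 ± 0.19 and -0.14 ± 0.20 (SE), among the smallest errors of the family. Lars, for leucine, had 145 and 119 CPM for WT against 121 and 103 CPM for KO, and Dars, for aspartate, had 46.2 and 33.6 CPM in the WT libraries and 41.6 and 26.0 CPM in the KO libraries. Gars had 166 and 256 CPM across WT and 191 and 364 CPM across KO, and Wars, for tryptophan, had 49.7 and 54.8 CPM for WT against 52.0 and 86.2 CPM for KO. In Gars and Wars KO replicate 1 lay within the WT range and KO replicate 2 above it.

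Over the whole cytosolic group 13 fold changes were negative and 6 positive, with a median of -0.15, against a median of -0.14 over all tested genes and 0.11 over tested genes at 20 CPM or more. The summed level was 3012 and 3338 CPM in the WT libraries and 2784 and 3370 CPM in the KO libraries, so the sums overlapped. Membership of the multisynthetase complex was noted from general knowledge after the values were seen, and is given without a test. The 6 genes with KO below WT were all among the 12 enzymes outside the complex, and the 2 with KO above WT, Kars and Qars, were among the 7 inside it (Dars, Eprs, Iars, Kars, Lars, Mars and Qars). The background was 19.2% of all tested genes below and 13.2% above, or 12.6% and 21.5% at 20 CPM or more. Of the 6, Cars had chosen the family. Aars, Hars and Tars lay only 4.29%, 2.4% and 3.01% under the lower WT library in KO replicate 1. Median log2 fold changes were -0.24 outside the complex and -0.09 inside. Enzymes known as targets of the amino acid response, noted in the same way, were 13: Aars, Cars, Eprs, Gars, Iars, Lars, Mars, Nars, Sars, Tars, Vars, Wars and Yars. In KO replicate 1, 10 of them were below both WT libraries and 0 above, and 13 were under the WT mean, where 30.9% of all tested genes were below both and 52.9% under the mean. Cars, whose value chose the family, is among the 13 and among the 10. Of tested genes at 20 CPM or more, where these 13 lie, 30.1% were below both, 36% above both and 48.1% under the mean. In KO replicate 2 the same 13 had 6 below and 5 above, where 54.9% and 34.2% of all tested genes were. At 20 CPM or more the shares in that library were 36.1% below and 53.2% above. Among the genes with the promoter motif, Aars, Tars and Yars had KO below WT, while Gars and Iars overlapped.

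The scaffold genes of the complex showed no common order. Aimp1 had 17.98 and 16.2 CPM across WT, 16.6 CPM in the first KO library and 0.192 CPM in the second, Aimp2 had 12.1 and 18.3 CPM across WT and 18.9 and 13.6 CPM across KO, and Eef1e1 had 10.4 and 13.0 CPM for WT against 16.02 and 5.06 CPM for KO. Of the 3 genes, 0 passed the test. The low value of Aimp1 was in the library with few detected genes.

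Most mitochondrial enzymes had a lower level per length than the cytosolic ones, and Lars2 and Yars2 were the exceptions. Yars2 had a mean over the 4 libraries of 11.9 CPM per kb, above Dars, Qars, Vars and Farsa. By these means the other 14 lay below all cytosolic members. With the longest transcript as the length Yars2 had 13.3, below Dars at 16.95 and Qars at 17.5. In KO replicate 2 alone Farsa, at 0.0792 CPM per kb, lay under Hars2, at 4.76. Lars2, the mitochondrial leucine enzyme, had 8366 and 8205 CPM in the WT libraries and 8797 and 20720 CPM in the KO libraries. It was the gene with the third highest count of all in WT and KO replicate 1 and the highest in KO replicate 2, and held 0.888%, 0.847%, 0.921% and 1.80% of the gene counts in WT replicates 1 and 2 and KO replicates 1 and 2. Per length it had a mean of 1039 CPM per kb, and its counts were 2.35 to 5.92 times those of the other 34 members summed. Both KO libraries lay above both WT libraries, KO replicate 1 at 106% of the WT mean and KO replicate 2 at 250%, and the log2 fold change was 0.83 ± 0.42 (SE), or 0.09 without KO replicate 2. Of the 40-base stretches of Lars2, 0.42% occur in other annotated genes, sequence outside that annotation was not compared, and whether reads of other transcripts were assigned to it was not tested.

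**Figure D3:**
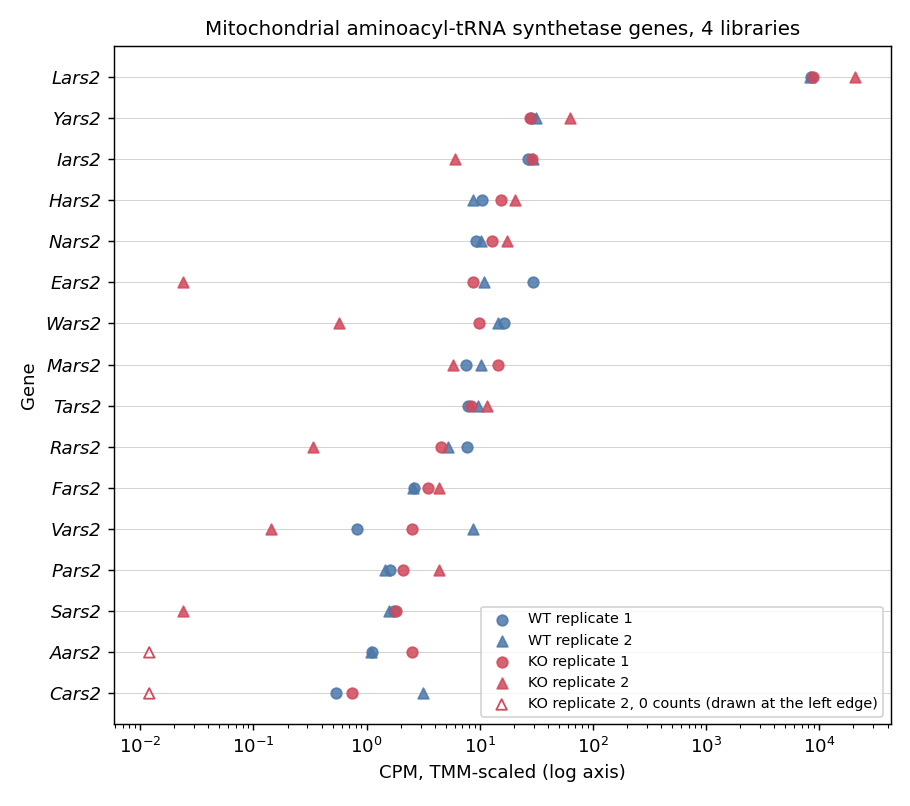
CPM (TMM-scaled, log axis) of the 16 mitochondrial synthetase genes, 1 point per library, WT in blue and KO in red, circles for replicate 1 and triangles for replicate 2, with open triangles at the left edge for 0 counts. Lars2 lies far to the right of the other 15 genes, and KO replicate 2 lies far to the left of the other libraries in Ears2, Wars2, Rars2, Vars2, Sars2, Aars2 and Cars2.

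Without Lars2 the mitochondrial genes summed to 152 and 148 CPM across WT and 144 and 134 CPM across KO, a few percent of the cytosolic sum in every library. Yars2, for tyrosine, was the next highest per length, with 28.1 and 31.1 CPM for WT against 27.8 and 62.7 CPM for KO. Hars2, for histidine, had 10.4 and 8.69 CPM in the WT libraries and 15.5 and 20.4 CPM in the KO libraries, and shares 3.61% of its 40-base stretches with the opposite strand of Hars, its neighbour. The pair lay on opposite sides of WT in KO replicate 2, Hars low and Hars2 high. Since the strand setting of the counting is not given, reads of such overlapping stretches cannot be told apart.

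In 5 of the 16 mitochondrial genes both KO libraries lay above both WT libraries (Fars2, Hars2, Lars2, Nars2 and Pars2), and in 3 below (Ears2, Rars2 and Wars2). The background was 13.2% of all tested genes above and 19.2% below. Nars2, for asparagine, had 9.23 and 10.2 CPM across WT and 12.7 and 17.4 CPM across KO. Fars2, for phenylalanine, had 2.64 and 2.57 CPM for WT against 3.50 and 4.31 CPM for KO, and Pars2, for proline, had 1.60 and 1.45 CPM in the WT libraries and 2.10 and 4.34 CPM in the KO libraries. In these 3 genes the distance between the WT libraries was smaller than the gap from WT to KO replicate 1.

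Wars2, for tryptophan, had 16.5 and 14.5 CPM in the WT libraries, 9.85 in KO replicate 1 and 0.575 in KO replicate 2. Ears2, for glutamate, had 29.7 and 10.8 CPM in the WT libraries, 8.66 CPM in KO replicate 1 and 0.0240 CPM, a single count, in KO replicate 2, and its WT libraries were 2.74-fold apart. Rars2, for arginine, had 7.77 and 5.28 CPM across WT, 4.54 CPM in the first KO library and 0.336 CPM in the second. Of these, only Wars2 had a KO replicate 1 value clear of WT by more than the distance between the WT libraries.

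Low values in KO replicate 2 ran through the less abundant enzymes. There, 8 of 16 mitochondrial genes were under 25% of the WT mean, where 35.7% of all tested genes were, and 4 had 3 counts or fewer. Aars2, for alanine, had 1.12 and 1.09 CPM in the WT libraries, 2.53 CPM in KO replicate 1 and 0 counts in KO replicate 2, which is 15.4-fold lower than the WT mean when set at 3 counts. Cars2, the mitochondrial counterpart of Cars, had 0.532 and 3.16 CPM in the WT libraries, 0.748 CPM in KO replicate 1 and 0 counts in KO replicate 2, 25.7-fold lower by the same floor. Sars2, for serine, had 1.76 and 1.56 CPM in the WT libraries, 1.81 CPM in KO replicate 1 and 1 count in KO replicate 2, and Vars2, for valine, had 0.816 and 8.62 CPM in the WT libraries, 2.50 in KO replicate 1 and 0.144 in KO replicate 2. Iars2, for isoleucine, had 26.4 and 29.2 CPM across WT, 28.9 CPM in the first KO library and 5.99 CPM in the second, and 22.2% of its 40-base stretches are shared with Rab3gap2 on the opposite strand. In KO replicate 1, where 3.73% of all tested genes were under 25% of the WT mean, none of these 5 genes was, and the low values are of the library in which fewer genes were detected.

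Mars2, for methionine, had 7.58 and 10.2 CPM across WT and 14.4 and 5.85 CPM across KO, and Tars2, for threonine, had 7.79 and 9.60 CPM for WT against 8.35 and 11.5 CPM for KO. Both overlapped between the groups. Of the 16 genes, 9 had a positive and 7 a negative fold change, at a median of 0.19, which turned to -0.38 with limma voom, -0.51 with the replicate block and -1.42 without KO replicate 1. In KO replicate 1, 4 were below both WT libraries and 8 above, where 30.9% and 31.4% of all tested genes were. The median log2 value against the WT mean was 0.07 there, against -0.028 over all tested genes. In KO replicate 2, 9 were below and 7 above, where 54.9% and 34.2% of all tested genes were. The median in that library was -1.41, against -0.547 over all tested genes. The cytosolic and mitochondrial medians thus lay to opposite sides of the WT mean in KO replicate 1, at -0.16 and 0.07. That difference was not tested.

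The mitochondrial counterparts of Cars, Sars and Yars, the cytosolic members with the clearest gaps, can be set beside them as shares of the WT mean in KO replicates 1 and 2. Cars was at 60.7% and 58.0%, and Cars2 at 40.5%, within the WT range, and 0 counts. Sars was at 72.3% and 81.2%, and Sars2 at 109% and 1.44%, the latter a single count. Yars was at 76.9% and 69.8%, and Yars2 at 93.9% and 212%. Cars2 and Sars2 were thus lowest in KO replicate 2, the library with few detected genes, and Yars2 was highest there.

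**Figure D4:**
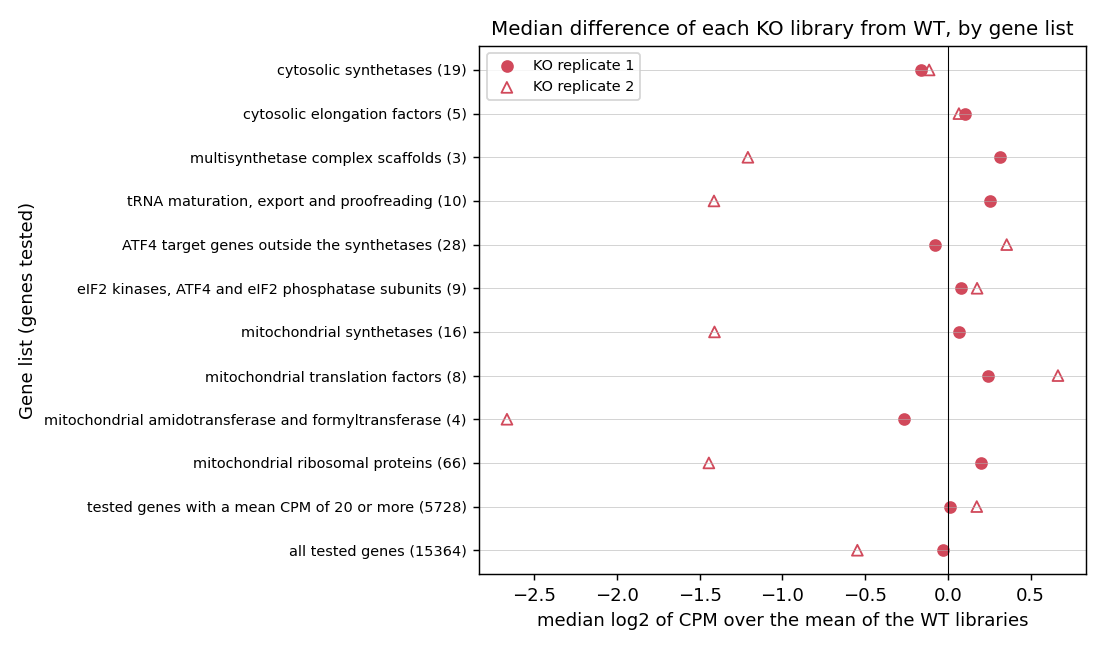
Median log2 of CPM over the mean of the WT libraries for each gene list, with the number of tested genes in brackets, circles for KO replicate 1 and triangles for KO replicate 2. The cytosolic synthetases have both medians left of 0, at -0.16 and -0.11, while several lists of less abundant genes have their KO replicate 2 median far to the left.

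Genes that work beside the synthetases were read for comparison, from lists written with earlier results of these data known, and 0 of their members passed the test. The elongation factors that carry charged transfer RNA to the ribosome or move it along had both KO libraries above both WT in 2 of 5 genes and below in 0, with a median log2 fold change of 0.09. The background was 13.2% of all tested genes above and 19.2% below, or 21.5% and 12.6% at 20 CPM or more. Eef1a1, which delivers the charged transfer RNA, had 1794 and 1797 CPM in the WT libraries and 1951 and 2072 CPM in the KO libraries, and Eef2, the translocase, had 1468 and 1582 CPM across WT and 1519 and 1248 CPM across KO. Eef1g had 443 and 437 CPM for WT against 443 and 580 CPM for KO, and Eef1b2, of the exchange factor for Eef1a1, had 209 and 191 CPM in the WT libraries and 215 and 154 CPM in the KO libraries. In KO replicate 1, 0 of these 5 genes lay below both WT libraries and 3 above, where 30.9% and 31.4% of all tested genes did.

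Among 10 tested genes of transfer RNA maturation, export and proofreading, 5 fold changes were positive and 5 negative. Xpot, the export receptor for transfer RNA, had 273 and 284 CPM across WT and 271 and 348 CPM across KO, and Trnt1, which adds the CCA end to which the amino acid is joined, had 50.03 and 49.1 CPM for WT against 59.7 and 155 CPM for KO. Nsun2, a transfer RNA methyltransferase, had 160 and 142 CPM in the WT libraries and 157 and 131 CPM in the KO libraries, and Rtcb, the ligase for spliced transfer RNA, had 58.9 and 65.0 CPM across WT and 65.9 and 26.0 CPM across KO. Trnt1 was the 1 gene of this list with KO above WT, and 0 had KO below WT, where 13.2% and 19.2% of all tested genes did.

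Genes of the eIF2 and ATF4 pathway were read next. Atf4 had 444 and 462 CPM for WT against 507 and 632 CPM for KO, with both KO libraries above WT and a log2 fold change of 0.33 ± 0.20 (SE). Ppp1r15a and Ppp1r15b, subunits that direct the phosphatase to eIF2, had 132 and 142 CPM in the WT libraries and 143 and 187 CPM in the KO libraries, and 253 and 232 CPM across WT and 321 and 274 CPM across KO. Eif2s1, the phosphorylated subunit, had 291 and 319 CPM for WT against 322 and 199 CPM for KO. Of the 9 genes of this list, 5 had KO above WT and 1 below, where 13.2% and 19.2% of all tested genes did, or 21.5% and 12.6% of those at 20 CPM or more, with a median log2 fold change of 0.27.

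Of 28 tested ATF4 target genes outside the synthetases, 17 had a positive fold change and 11 a negative one, at a median of 0.12, and both KO libraries lay below WT in 1 gene and above in 4. The background was 19.2% of all tested genes below and 13.2% above, or 12.6% and 21.5% at 20 CPM or more. The most abundant were amino acid transporters. Slc38a2 had 2013 and 1965 CPM in the WT libraries and 1987 and 2872 CPM in the KO libraries, Slc7a1 had 801 and 981 CPM across WT and 579 and 1042 CPM across KO, and Slc7a5 had 493 and 569 CPM for WT against 467 and 692 CPM for KO. Slc3a2, the partner chain of Slc7a5, had 459 and 424 CPM in the WT libraries and 488 and 677 CPM in the KO libraries. Asns, the asparagine synthetase and a standard readout of the pathway, named here after its values were seen, had 135 and 118 CPM across WT and 119 and 121 CPM across KO, a range within that of WT. In KO replicate 1, 11 of the 28 genes (39.3%) were below both WT libraries, against 63.2% of the cytosolic synthetases and 30.9% of all tested genes. In KO replicate 2, 4 (14.3%) were, against 47.4% and 54.9%. Of tested genes at 20 CPM or more, 30.1% and 36.1% were below in KO replicates 1 and 2. Without Cars the shares of the cytosolic synthetases were 61.1% and 44.4%. The difference between the lists was not tested.

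In the mitochondrial machinery, 8 tested translation factors had 5 positive and 3 negative fold changes. Both KO libraries lay above both WT libraries in 4 of them and below in 1, where 13.2% and 19.2% of all tested genes did. Gfm1, an elongation factor, had 52.2 and 48.9 CPM for WT against 58.1 and 54.9 CPM for KO, and Tufm, which delivers charged transfer RNA, had 12.5 and 17.7 CPM in the WT libraries and 19.1 and 76.4 CPM in the KO libraries. Mrrf, the ribosome recycling factor, had 19.9 and 16.7 CPM across WT and 22.3 and 43.3 CPM across KO, and Mtrf1l, a release factor, had 6.42 and 10.8 CPM for WT against 7.51 and 27.2 CPM for KO. Mitochondria make their glutaminyl-tRNA by amidation, with an enzyme of the Qrsl1, Gatb and Gatc subunits, and Mtfmt formylates the initiator. Gatc had 28.7 and 22.7 CPM in the WT libraries and 22.0 and 9.18 CPM in the KO libraries, Mtfmt had 12.2 and 8.42 CPM across WT and 8.35 and 23.6 CPM across KO, Gatb had 0.852 and 8.30 CPM for WT against 3.63 and 0.168 CPM for KO, and Qrsl1 had 2.25 and 2.57 CPM in the WT libraries and 2.42 and 0.168 CPM in the KO libraries. Of these 4 genes Gatc had KO below WT and 0 had KO above, where 19.2% and 13.2% of all tested genes did. The 66 mitochondrial ribosomal protein genes had 27 positive and 39 negative fold changes, with medians of 0.20 in KO replicate 1 and -1.45 in KO replicate 2. Over all tested genes these medians were -0.028 and -0.547.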

How the data were processed

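Raw read counts of Ensembl genes were deposited for 4 libraries, 1 file each. Per the submitters' processing notes, TopHat2 (2.02) aligned reads to NCBIM37 (mm9) and HTSeq counted them. Annotation release, strand setting and overlap rule: not given in the sources used here. Per the labels' protocols, RNA came from a PicoPure kit and libraries from NuGEN and Illumina protocols. The 5 summary rows stayed out of totals: no feature took 57.59% to 61.52% of all counted lines and ambiguous reads 0.708% to 0.786%. GENCODE M21 (GRCm38) gave symbols (86.9% of rows matched), exon lengths, transcripts and 3′ UTRs, and RefSeq the promoters and the microRNA.

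All 34615 genes entered edgeR 4.0.16 (R 4.3.3): filterByExpr, TMM, quasi-likelihood test on genotype (KO against WT), no replicate block, Benjamini-Hochberg adjustment, threshold 0.05. The SE is the log2 fold change over the root of F. Alternatives were DESeq2 1.42.0, limma voom 3.58.1, other scalings and filters, a replicate block and each library left out. With a library left out, the lone one is assumed to vary like the others. Counting error alone allows up to 3 counts for a 0, or 0.0477 to 0.0719 CPM, if reads are independent molecules. Amplified reads are not, so the true limit may be higher. The test was run on simulated data with a smaller spread between libraries than in these, whose biological coefficient of variation was 0.932. That run does not measure the power of the test here. Tables used Python 3.11.15, pandas 2.3.3 and numpy 2.4.6.

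Members and lists were chosen with earlier results of these data known. All members were named, and from every other list the 4 most abundant tested genes (2 for markers of other cell types) and any called gene. The promoter stretches of Aars are not reported here.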

Additional observations from a re-analysis of the deposited data

How the results depend on the processing

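No member was called under any scaling, filter or tool tried, or with the replicate block. Without KO replicate 1, where KO replicate 2 alone stands for KO, 4 members were called higher and 10 lower among 5724 called genes, so the count over all genes ranged from 0 to 5724 as single libraries were left out, with 5 genes without WT replicate 1 or WT replicate 2 and 0 without KO replicate 2. DESeq2 called 4 genes. The cytosolic median log2 fold change of -0.15 was -0.29 with upper quartile scaling, -0.31 with total count scaling, -0.21 at a mean CPM of 5 or more, -0.25 at a mean CPM of 20 or more (chosen after seeing the data), -0.21 with limma voom and -0.19 with the replicate block, and ran from -0.160 to -0.079 with libraries left out. The median over all tested genes moved as well, from -0.14 to -0.225 with upper quartile scaling and -0.238 with total count scaling. It was -0.218 with limma voom, -0.253 with the replicate block, -0.012 at a mean CPM of 5 or more and 0.003 at 20 or more. The mitochondrial median of 0.19 was -0.38 with limma voom and -0.51 with the replicate block, and ran from -1.42 without KO replicate 1 to 0.39 without WT replicate 2. Same-numbered libraries deviated together with a correlation of 0.0205, so the block pairs numbers only, and it changed no call. Of 413 other values of members, 399 kept their side of the threshold, 376 of them with the same sign and 23 with the other, 13 passed it without KO replicate 1, and Aars2 turned from 0.20 to -8.86 there (1.20 at most with another library left out). Sign changes without a call were most frequent without KO replicate 2, in 10 members: Dars, Farsa, Farsb, Gars, Iars, Iars2, Sars2, Tars2, Wars and Yars2. The Cars value ran from -0.84 to -0.66 with libraries left out. With the longest transcript as the length, the median cytosolic level was 30.7 in place of 21.3 CPM per kb. Counts of 0 or 1 in KO replicate 2 limit the values of Aars2, Cars2, Ears2 and Sars2, in a library whose total of 47953972 counts was the lowest of the 4 libraries, against 53067076 to 60030932.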
